A study of Mus musculus with 8 samples.

Results

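The genes described here move or bind zinc, iron, copper or magnesium. They are the 14 Slc39a genes (ZIP proteins, which bring zinc into the cytosol), the 10 Slc30a genes (ZnT proteins, which take zinc out of it), the metallothioneins Mt1 and Mt2, 4 iron carriers and receptors, 4 copper carriers and pumps, and 9 magnesium channels and carriers. They were chosen by gene symbol, which gave 43 of the 55291 symbols in the deposited tables. RNA was sequenced from the outer medullary collecting duct, a stretch of tubule made of principal cells, which recover salt and water, and intercalated cells, which handle acid and base. The ducts came from C57BL/6J mice, an inbred strain, kept for 3 days on a high-salt (3%) or a normal-salt (0.3%) diet, with 4 libraries for each diet. Each library pooled 100 to 120 pieces of tubule from 1 mouse, and the kidneys of both diets were treated with liberase, a tissue-digesting enzyme. The labels name no genetic change and give no age or sex. The comparison asks which transcripts of this segment differ after 3 days of high salt intake.

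Cells hold free zinc, copper and iron at very low levels, because each is a cofactor for many enzymes and is toxic in excess. Metallothioneins are small cysteine-rich proteins that bind zinc and copper, and their genes are switched on by the zinc-sensing transcription factor MTF1 (gene Mtf1), which binds metal response elements in their promoters. Iron is handled after transcription: iron regulatory proteins bind stem-loops called iron-responsive elements in the messenger RNA, which protects the transferrin receptor message when iron is low and blocks translation of ferritin and ferroportin. Regulated magnesium uptake in the kidney is best known from the thick ascending limb and the distal convoluted tubule, which lie upstream of the collecting duct.

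The promoters of Mt1 and Mt2 are shown because these genes followed each other across libraries. The metal response element was searched as TGCACNC or TGCGCNC on both strands, and its matches are in capitals. Each promoter runs from 250 bases before the annotated start to 50 bases after it (RefSeq, GRCm38.p6), Mt1 at chr8:94178839-94179138 and Mt2 at chr8:94172368-94172667, both on the plus strand.
Mt1 promoter: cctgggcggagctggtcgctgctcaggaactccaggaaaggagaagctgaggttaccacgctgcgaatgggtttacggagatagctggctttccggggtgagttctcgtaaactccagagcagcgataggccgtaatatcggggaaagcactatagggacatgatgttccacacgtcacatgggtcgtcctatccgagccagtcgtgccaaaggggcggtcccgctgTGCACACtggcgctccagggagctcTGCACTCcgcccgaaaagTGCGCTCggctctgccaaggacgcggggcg
Mt2 promoter: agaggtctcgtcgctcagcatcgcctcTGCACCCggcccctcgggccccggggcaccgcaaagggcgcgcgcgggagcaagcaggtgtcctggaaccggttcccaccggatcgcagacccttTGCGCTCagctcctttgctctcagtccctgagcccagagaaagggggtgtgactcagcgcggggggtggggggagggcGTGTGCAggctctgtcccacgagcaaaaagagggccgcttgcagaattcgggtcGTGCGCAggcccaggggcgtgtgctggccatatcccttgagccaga
The Mt1 window held 3 matches, all on the plus strand, starting at positions -23, 2 and 20 from the annotated start. The Mt2 window held 4 matches, 2 on each strand. Of 32851 mouse promoters of this length, 25.7% held at least 1 match, 1.97% at least 3 and 0.517% at least 4. A promoter was listed for 37 of the 43 genes, 43 promoters in all, and 23 of the 37 genes held at least 1 match. A gene with more than 1 promoter was counted by the promoter with the most matches, while the shares above are of single promoters. Only Mt1, Mt2, Slc30a4 and Slc30a10 held 3 or more, and Slc30a1, a textbook target of MTF1, held 2. These letters are matches of a short motif and were not tested as binding sites. Their positions and counts hold only for the annotated start and this window. Bases beyond the window were not searched, and whether transcription in these ducts begins at the annotated start was not tested.

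Matches to the iron-responsive element in the transferrin receptor gene Tfrc are shown because Tfrc varied widely between mice. Those in the iron exporter Slc40a1 (ferroportin) and in the ferritin genes Fth1 and Ftl1 are shown for comparison. They were searched in annotated untranslated regions (GENCODE M21, GRCm38) as a 6-base CAGTGN loop on a stem of 5 paired bases with an unpaired C below it, and the loop is in capitals. An element with another loop or an unpaired base in the stem would be missed.
Tfrc 3′ untranslated region, element 1, chr16:32631222-32631244: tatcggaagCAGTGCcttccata
Tfrc 3′ untranslated region, element 2, chr16:32631601-32631623: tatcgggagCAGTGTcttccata
Tfrc 3′ untranslated region, element 3, chr16:32631666-32631688: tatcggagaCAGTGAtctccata
Tfrc 3′ untranslated region, element 4, chr16:32631713-32631735: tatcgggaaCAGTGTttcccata
Slc40a1 5′ untranslated region, chr1:45925468-45925490, minus strand: cttcagctaCAGTGTtagctaag
Fth1 5′ untranslated region, chr19:9982735-9982757: ctgcttcaaCAGTGCttgaacgg
Ftl1 5′ untranslated region, chr7:45459782-45459804, minus strand: ttgcttcaaCAGTGTttgaacgg
Of 21157 genes with an annotated untranslated region, 160 (0.756%) held a match, and the 4 in Tfrc were the most in any 1 region.

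The 8 libraries held 64.8 to 94.1 M estimated counts, a depth recovered from the steps of the deposited values. Levels within 1 gene are given in CPM, counts scaled by library total, and levels of different genes are compared in TPM, which also allows for transcript length. Libraries are named by diet and by the number in their column name, and lists of 8 values give high-salt libraries 2, 3, 4 and 6 and then normal-salt libraries 1, 2, 3 and 6. The collecting duct label fitted its markers: 14 listed principal cell markers summed to 31948 to 37297 CPM under high salt and 24005 to 28932 CPM under normal salt, and 14 intercalated cell markers to 9126 to 10813 CPM under high salt and 10705 to 11839 CPM under normal salt. The diets did not overlap for 6 of the 14 principal cell markers (42.9%), 4 higher and 2 lower under high salt. Nor did they for 4 of the 14 intercalated cell markers (28.6%), all lower under high salt. Of all tested genes, 6.4% did not overlap. Whether the share of either cell type has a part in the metal gene values was not tested. Markers of the thick ascending limb, 15 genes of which 14 passed the level filter, summed to 228 to 3027 CPM under high salt and 766 to 2418 CPM under normal salt. Markers of the distal convoluted and connecting tubule, 13 genes of which 11 passed the filter, summed to 681 to 946 CPM under high salt and 617 to 804 CPM under normal salt. Among them Slc12a3, which defines the distal convoluted tubule, reached 2.47 CPM in high-salt library 6 and was at 0 in 5 libraries. Normal-salt library 1 stood apart. It had the lowest depth, its 20 most abundant genes took 13.4% of counts against 10.6% to 11.7% elsewhere, and it was highest in fibroblast markers (13 genes, 329 CPM in all, against 74.9 to 195 CPM in the others) and macrophage markers (13 genes, 61.6 CPM, against 20.6 to 31.5 CPM). In normal-salt library 1 the 2158 tested genes whose longest transcript is under 1500 bases had a median log2 difference of 0.40 from the mean of the other normal-salt libraries, and the 2749 genes with a transcript of 5000 bases or more had a median of -0.40. In normal-salt library 6 these medians were -0.23 and 0.22 and in normal-salt library 2 they were -0.13 and 0.10, the other way round, each against a mean that includes library 1. In the high-salt libraries they lay between -0.05 and 0.04. Fold changes without normal-salt library 1 are given for the genes with the smallest p-values, and in the plot of fold changes for all 22 genes given library by library.

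No gene that handles zinc, iron, copper or magnesium changed past the threshold between the diets. The genes with the smallest p-values were magnesium carriers, a zinc importer and a copper pump, all with higher means under high salt, and those that varied most were the metallothioneins and the transferrin receptor. A gene was tested when it reached 1 CPM in at least 4 of the 8 libraries, which 34 of the 43 did: 10 of 14 ZIP genes, 6 of 10 ZnT genes, both metallothioneins, 3 of 4 iron genes, 4 of 4 copper genes and 9 of 9 magnesium genes. With limma on log2(CPM + 1) and Benjamini-Hochberg adjustment over 13401 genes, 0 of these 34 had an adjusted p under 0.05, where 11 genes in the whole table (0.0821%) did, and their lowest adjusted p was 0.382. Limma voom on the estimated counts also called 0 of them. An exact permutation test could call no gene: its smallest p, 0.0286, was reached by 858 of the 13401 genes, too few to pass adjustment. At an unadjusted p under 0.05 there were 5 in limma, where 10.3% of all tested genes reached that level. All 5 were higher under high salt, where 5.95% of tested genes were, and 0 were lower, where 4.37% were. They were the magnesium genes Cnnm1, Cnnm2 and Slc41a2, the zinc importer Slc39a6 and the copper pump Atp7b. The libraries of the diets did not overlap for 2 of the 34, Cnnm2 and Atp7b, both higher under high salt, where 6.4% of tested genes did not overlap in either direction, 3.66% with high salt higher and 2.75% with high salt lower. The 5 make 14.7% and the 2 make 5.88% of the 34, so the share without overlap is near that of the whole table. Of the 34, 23 had the higher mean under high salt, where 52.8% of tested genes did, and their median log2 fold change was 0.07, against 0.01 over all tested genes. The single values ran from -0.50 for Tfrc to 0.53 for Atp7b.

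**Figure D1:**
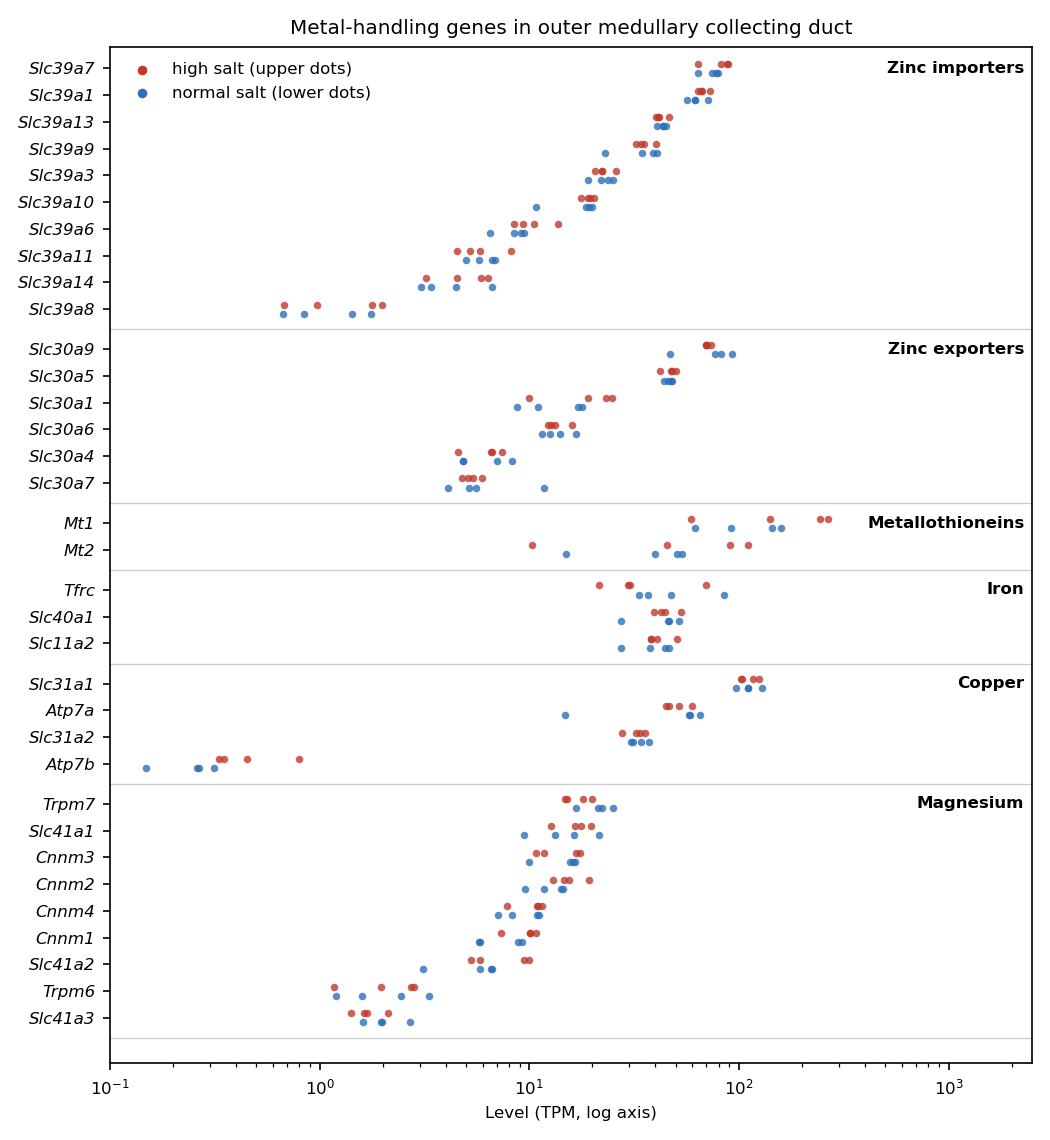
Level of each of the 34 tested genes in TPM (log axis), with 1 dot per library, high salt in the upper row of each gene and normal salt in the lower row, and genes ordered by mean level within each metal. The dots of Mt1, Mt2, Tfrc and Slc30a1 are spread widely within both diets, and 1 normal-salt dot of Atp7a, library 1 at 14.9 TPM, lies apart from the other 7.

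The zinc importers were led by Slc39a7, which releases zinc from the endoplasmic reticulum and Golgi into the cytosol, and by Slc39a1, a zinc importer of the plasma membrane. Their mean levels over the 8 libraries were 77.2 ± 9.55 TPM for Slc39a7 and 65.0 ± 5.33 TPM for Slc39a1 (SD, n = 8), with Slc39a7 above Slc39a1 in 7 of the 8. Slc39a13, which carries zinc out of the Golgi and vesicles, followed at 42.7 ± 2.25 TPM, and its libraries did not overlap those of Slc39a1. Slc39a7 took 23.8% to 29.9% and Slc39a1 21.1% to 24.9% of the summed TPM of the 14 ZIP genes in a library. Below them came Slc39a9 at 34.9 TPM, Slc39a3 at 22.7 TPM and Slc39a10 at 18.1 TPM, and at the low end Slc39a14, which also carries iron and manganese, at 4.69 TPM and Slc39a8 at 1.26 TPM.

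The leading importers were among the steadiest genes of the set. Slc39a7 had 87.0, 110, 89.2 and 108 CPM in the high-salt libraries and 102, 91.3, 97.8 and 87.9 CPM in the normal-salt libraries. Slc39a1 had 95.2, 105, 96.1 and 92.3 CPM under high salt and 93.2, 87.2, 102 and 85.5 CPM under normal salt. Slc39a13 had 51.4, 57.4, 51.2 and 54.4 CPM under high salt and 61.7, 51.8, 51.6 and 47.0 CPM under normal salt. The diets overlapped in all 3, and their log2 fold changes were 0.05, 0.08 and 0.02 in that order (SE 0.10, 0.09 and 0.10, limma adjusted p = 0.909, 0.811 and 0.964).

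Slc39a6, an importer of the plasma membrane, had the largest fold change among the ZIP genes. It had 24.4, 19.8, 24.9 and 22.0 CPM in the high-salt libraries and 17.3, 20.3, 19.7 and 17.3 CPM in the normal-salt libraries. High-salt libraries 2, 4 and 6 lay above all the normal-salt libraries, and high-salt library 3 lay among them. The log2 fold change was 0.27 (SE 0.11, unadjusted p = 0.0346, adjusted p = 0.438 in limma). Across the other importers tested, fold changes ran from -0.01 for Slc39a11 and Slc39a9 to 0.14 for Slc39a10 and Slc39a8, and 8 of the 10 had the higher mean under high salt.

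The importers Slc39a2, Slc39a4, Slc39a5 and Slc39a12 stayed under the level filter. Slc39a4, the zinc importer of the intestine, reached at most 0.212 CPM in any library, and Slc39a12 was above 0 in 1 library only, at 0.0342 CPM. Slc39a2 reached at most 0.597 CPM and Slc39a5 at most 0.549 CPM. Slc39a2 shares exon bases on its own strand with Mettl17 and Slc39a7 with Gm20427, and the strand setting of the counting is not given in the sources used here, so reads there could be divided between neighbours.

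Among the zinc exporters and vesicle loaders, Slc30a9, a carrier of zinc out of mitochondria, was highest at 72.7 ± 13.2 TPM (SD, n = 8). It took 38.9% to 50.9% of the summed TPM of the 10 ZnT genes. Slc30a5, which loads zinc into the early secretory pathway for enzymes such as alkaline phosphatase, followed at 46.6 ± 2.51 TPM, below Slc30a9 in every library. Slc30a1, the exporter of the plasma membrane, had 16.5 ± 6.02 TPM and the vesicle loaders Slc30a6, Slc30a4 and Slc30a7 had 13.6, 6.27 and 5.98 TPM. Slc30a1 and Slc30a6 overlapped, and Slc30a1 was the higher in 5 of the 8 libraries.

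Slc30a9 had 115, 113, 116 and 128 CPM under high salt and 118, 114, 141 and 112 CPM under normal salt. Slc30a5 had 81.5, 74.6, 84.5 and 84.2 CPM under high salt and 76.6, 79.2, 77.9 and 82.0 CPM under normal salt. The diets overlapped in both genes, with log2 fold changes of -0.04 (SE 0.09, limma adjusted p = 0.929) for Slc30a9 and 0.04 (SE 0.08, adjusted p = 0.907) for Slc30a5. Over the 8 libraries Slc30a5 had an SD of 0.06 on the log2 scale, a spread that only 0.948% of tested genes matched or went below.

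Slc30a1 varied far more. It had 69.9, 30.7, 75.4 and 58.2 CPM in the high-salt libraries and 31.4, 53.3, 33.5 and 50.7 CPM in the normal-salt libraries. High-salt libraries 2, 4 and 6 lay above every normal-salt library, while high-salt library 3 was the lowest of all 8. Its log2 fold change was 0.42 with an SE of 0.27 (limma adjusted p = 0.645). The gene shares exon bases on the opposite strand with 1700034H15Rik.

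The 4 ZnT genes under the filter are known from other tissues. Slc30a8, the zinc loader of insulin granules, had 0 in all 8 libraries, which allows a level of up to 0.0319 to 0.0463 CPM in a library (3 counts, counting error only). Slc30a3, the loader of synaptic vesicles, was above 0 in 1 library at 0.0586 CPM. Slc30a10, known mainly as a manganese exporter, reached at most 0.0381 CPM, and Slc30a2 at most 0.149 CPM.

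By mean TPM over the 8 libraries Mt1 was the most abundant of the 43 genes and Mt2 was the sixth, and both varied widely within each diet. In high-salt library 3 and in normal-salt libraries 3 and 6 the copper importer Slc31a1 was above Mt1 in TPM. In high-salt library 3 and normal-salt library 3, Slc39a7, Slc39a1 and Slc30a9 were above Mt1 too. In normal-salt library 3 so was Tfrc. Mt1 averaged 146 ± 77.0 TPM and Mt2 52.0 ± 34.2 TPM over the 8 libraries (SD), with Mt1 above Mt2 in each. Mt1 had 33.6, 14.2, 66.7 and 62.2 CPM in the high-salt libraries and 41.0, 38.0, 15.2 and 21.3 CPM in the normal-salt libraries. Mt2 had 9.42, 2.13, 23.9 and 19.4 CPM in the high-salt libraries and 12.6, 10.8, 3.11 and 7.95 CPM in the normal-salt libraries. In both genes high-salt libraries 4 and 6 were the highest of all 8 and high-salt library 3 was the lowest, so the high-salt libraries spanned the normal-salt ones. The log2 fold change was 0.48 (SE 0.46, limma adjusted p = 0.776) for Mt1 and 0.37 (SE 0.59, adjusted p = 0.877) for Mt2. Single libraries set these values. Without high-salt library 3 the fold change was 0.93 for Mt1 (unadjusted p = 0.0249), 0.99 for Mt2 (unadjusted p = 0.0409) and 0.70 for Slc30a1 (unadjusted p = 0.00572), with adjusted p-values of 0.50, 0.575 and 0.339 in that order. Without high-salt library 4 it was 0.21 for Mt1, -0.01 for Mt2 and 0.28 for Slc30a1, without high-salt library 6 it was 0.25 for Mt1 and 0.09 for Mt2, and without normal-salt library 3 it was 0.22, 0.01 and 0.33.

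The spread between mice differed widely among the genes. Over the 8 libraries the SD of log2(CPM + 1) was 1.04 for Mt2, above that of 99.3% of the tested genes, and 0.83 for Mt1, above that of 98.5%. The median SD was 0.20 for the 34 genes and 0.21 for all tested genes. Next came Tfrc at 0.69, Atp7a at 0.59 and Slc30a1 at 0.51, each above at least 93.8% of the tested genes.

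Mt1 and Mt2 rank the 8 libraries in the same order. Across the libraries of both diets Pearson's r was 0.97 and Spearman's rho was 1 on log2(CPM + 1), with exact permutation p = 2.48e-05 for r, the smallest that 8 libraries can give, and 0.000521 adjusted over the 21 pairs of 7 MTF1 targets compared (rho: p = 4.96e-05, adjusted p = 0.00104). Without the 2 libraries farthest from the median of Mt1, high-salt library 3 and normal-salt library 3, r was 0.96. With each diet's mean taken out it was 0.98. The CPM of Mt1 divided by that of Mt2 was 3.57, 6.66, 2.79 and 3.20 in the high-salt libraries and 3.25, 3.53, 4.87 and 2.68 in the normal-salt libraries. The ratio was highest in the 2 libraries with the least of both genes. The coding sequences of 183 bases are 79.2% identical and share no identical stretch over 20 bases, and how the counting treated reads that fit both genes is not given in the sources used here. Mt2 also shares exon bases on the opposite strand with Gm45774.

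The other listed targets of MTF1 did not all rank the libraries as the metallothioneins did. Hmox1, heme oxygenase, which frees iron from heme, had 12.6, 7.03, 14.4 and 13.1 CPM in the high-salt libraries and 14.4, 14.7, 8.16 and 8.99 CPM in the normal-salt libraries. Both high-salt library 3 and normal-salt library 3 were the lowest of their diet, as for Mt1 and Mt2. Mt1 with Hmox1 gave r = 0.91 (exact permutation p = 0.00315, adjusted p = 0.0220) and rho = 0.83 (p = 0.0154, adjusted p = 0.108). It was r = 0.94 with each diet's mean taken out and r = 0.74 (exact permutation p = 0.0736) in the 6 libraries left without the 2 farthest. Mt2 with Hmox1 gave r = 0.89 (exact permutation p = 0.00193, adjusted p = 0.0203) and rho = 0.83 (p = 0.0154, adjusted p = 0.108), with r = 0.57 (exact permutation p = 0.249) in those 6. Mt1 with Slc30a1 gave r = 0.67 (exact permutation p = 0.0768, adjusted p = 0.269) and rho = 0.67 (p = 0.0831, adjusted p = 0.349), which misses the threshold, and r was 0.29 without the same 2 libraries. Mt2 with Slc30a1 gave r = 0.71 (exact permutation p = 0.0537, adjusted p = 0.226) and rho = 0.67 (p = 0.0831, adjusted p = 0.349), with r = 0.31 without them. For Txnrd1, a thioredoxin reductase, r rose instead when those 2 libraries were left out. With Mt1 it gave r = 0.26 (exact permutation p = 0.53, adjusted p = 0.921) and rho = 0.36 (p = 0.389, adjusted p = 0.743) over the 8 libraries. In the same 6 libraries r was 0.96 (exact permutation p = 0.00833, not adjusted). With Mt2 r was 0.10 (adjusted p = 0.949) over the 8 and 0.95 in the 6. With each diet's mean taken out, r of Txnrd1 over the 8 was 0.08 with Mt1 and -0.04 with Mt2. Slc39a10 and Gclc, also listed targets, had negative r over the 8 libraries. The list does not give whether MTF1 raises or lowers each gene, so the sign of r is a description only. Slc39a10 gave -0.34 with Mt1 and -0.40 with Mt2, and Gclc gave -0.30 and -0.18 (exact permutation adjusted p from 0.828 to 0.949). In the same 6, Slc39a10 gave 0.04 and 0.01 and Gclc gave -0.79 and -0.82.

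**Figure D2:**
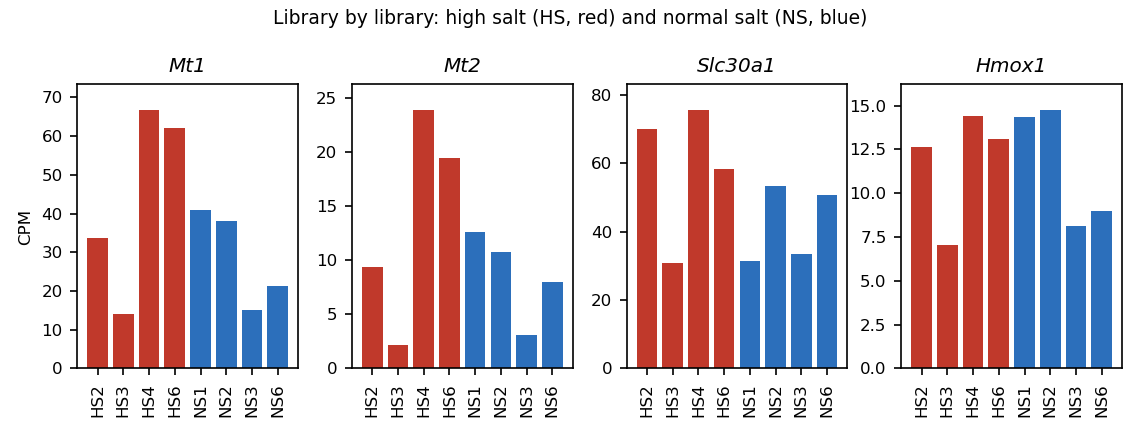
CPM of Mt1, Mt2, Slc30a1 and Hmox1 in each library, with the high-salt libraries (HS) on the left of each panel and the normal-salt libraries (NS) on the right. Mt1 and Mt2 rank the 8 libraries identically, and all 4 genes are lowest in high-salt library 3.

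Of the 8 listed MTF1 targets 7 were tested and 0 were called by limma. Only Txnrd1 reached an unadjusted p under 0.05, with 187 ± 21.7 CPM under high salt and 155 ± 20.7 CPM under normal salt (SD, n = 4 each, log2 fold change 0.27, adjusted p = 0.463). Gclc, which makes the glutathione precursor, had 304 ± 33.0 CPM under high salt and 355 ± 40.4 CPM under normal salt (-0.22, adjusted p = 0.540). The 7 genes had a median log2 fold change of 0.27, but the list holds Mt1, Mt2, Slc30a1 and Slc39a10 again. It also gives no direction of MTF1 action, so the median pools the 7 whatever their direction. Mtf1 itself had 33.9 ± 2.71 CPM under high salt and 32.7 ± 3.94 CPM under normal salt (0.05, SE 0.11, adjusted p = 0.913). Of the other zinc genes listed, 3 of 5 were tested and 0 were called or at an unadjusted p under 0.05: besides Mtf1, Gpr39, a zinc-sensing receptor, had a fold change of 0.14 and Tmem163, a zinc-binding membrane protein, -0.49. The remaining metallothioneins were at or near 0, with Mt4 at 0 in every library and Mt3 at most 0.509 CPM.

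Metallothionein genes also respond to glucocorticoids, so 10 listed glucocorticoid targets were set beside them. Limma called 0 of the 10, and 4 reached an unadjusted p under 0.05, 3 of them lower under high salt, where 10.3% of all tested genes reached that level and 4.37% were lower. Sgk1, a kinase induced by corticosteroids, had 97.8, 93.4, 87.5 and 164 CPM under high salt and 506, 278, 499 and 156 CPM under normal salt (log2 fold change -1.59, SE 0.35, adjusted p = 0.124). It was highest in normal-salt libraries 1 and 3. Zbtb16 had a fold change of -1.62 (adjusted p = 0.405), Tsc22d3 -0.27 (adjusted p = 0.423) and Cdkn1a 0.34 (adjusted p = 0.481). Of 21 immediate early and heat shock genes, which respond to tissue digestion, 19 were tested, 0 were called and Fosl2 alone reached an unadjusted p under 0.05 (0.62, adjusted p = 0.469). Whether either response has a part in the metallothionein levels was not tested.

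Of the iron genes, the transferrin receptor Tfrc, the exporter Slc40a1 and the divalent metal carrier Slc11a2 had like levels. Their means were 44.1 ± 22.1, 43.9 ± 8.07 and 40.5 ± 7.08 TPM in that order (SD, n = 8), and neighbours in this order overlapped, with Tfrc above Slc40a1 in 3 of the 8 libraries. The first of the 3 in a library therefore depended on the mouse: Tfrc took 19.1% to 47.7% of the summed TPM of the 4 iron genes. Slc11a1, the iron carrier of macrophage phagosomes, stayed under the filter at up to 0.494 CPM. Its highest CPM was in normal-salt library 1, the library with the most macrophage marker RNA. In TPM its highest value, 0.762, was in high-salt library 4, against 0.304 in normal-salt library 1.

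Tfrc takes up transferrin-bound iron, and its message carries the 4 matches printed above. Tfrc had 50.4, 72.1, 72.7 and 164 CPM in the high-salt libraries and 132, 89.4, 207 and 72.3 CPM in the normal-salt libraries. Normal-salt library 3 was the highest and high-salt library 2 the lowest of the 8, and high-salt library 6 lay above 3 of the 4 normal-salt libraries. The log2 fold change was -0.50 (SE 0.37, limma adjusted p = 0.701). It was -0.84 without high-salt library 6 (unadjusted p = 0.0224, adjusted p = 0.379), -0.28 without high-salt library 2 and -0.22 without normal-salt library 3. The list of 9 erythroid markers holds Tfrc itself and summed to 2237 to 3068 CPM under high salt and 2220 to 3465 CPM under normal salt. Nearly all of that was Slc4a1, an anion exchanger that intercalated cells also express, with 2072 to 3017 CPM under high salt and 2074 to 3257 CPM under normal salt. The other 7 were under the level filter, and the highest of them was Hba-a1, at up to 0.405 CPM under high salt and, under normal salt, 6.58 CPM in library 1 and up to 1.16 CPM elsewhere.

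Slc40a1 had 96.5, 80.6, 81.1 and 74.8 CPM under high salt and 62.0, 80.2, 81.4 and 93.9 CPM under normal salt. Slc11a2 had 61.1, 63.0, 58.8 and 65.9 CPM under high salt and 57.5, 56.0, 75.9 and 53.1 CPM under normal salt. Both overlapped between the diets, with log2 fold changes of 0.08 (SE 0.13, limma adjusted p = 0.885) for Slc40a1 and 0.05 (SE 0.11, adjusted p = 0.923) for Slc11a2, and normal-salt library 1 was the lowest for Slc40a1. Slc11a2 shares exon bases on the opposite strand with Gm5475.

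Of the 39 other iron genes listed, 30 were tested, 0 were called and 1 reached an unadjusted p under 0.05. It was Flvcr1, a carrier known for exporting heme and moving choline, with 33.0 ± 7.63 CPM under high salt and 24.4 ± 3.55 CPM under normal salt (SD, n = 4 each, log2 fold change 0.40, SE 0.17, adjusted p = 0.461). The median over the 30 was -0.03. Ferritin was far above the carriers in TPM, with 2223 TPM for the heavy chain Fth1 and 1894 TPM for the light chain Ftl1 over the 8 libraries. Fth1 had 1027 ± 88.5 CPM under high salt and 1114 ± 282 CPM under normal salt (-0.09, adjusted p = 0.894), and Ftl1 had 971 ± 88.1 CPM under high salt and 1020 ± 168 CPM under normal salt (-0.06, adjusted p = 0.916). Hmox1, whose 8 values are given above, had a fold change of 0.02 (SE 0.24, adjusted p = 0.982). Fech, the last enzyme of heme synthesis, Alas1, the first, and Aco1, which is the iron regulatory protein 1 when it lacks its iron-sulfur cluster, had fold changes of -0.12, 0.25 and 0.12 in that order. The iron hormone genes Hamp and Hamp2 were at 0 in every library.

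The copper genes were led by Slc31a1 (CTR1), the copper importer of the plasma membrane, at 112 ± 11.3 TPM (SD, n = 8). By mean TPM it came next to Mt1 among the 43 genes, and it took 53.6% to 67.5% of the summed TPM of the 4 copper genes. Atp7a, the copper pump that is defective in Menkes disease, had 49.9 ± 15.7 TPM, Slc31a2, an intracellular copper carrier, 32.8 ± 3.02 TPM, and Atp7b, the pump that is defective in Wilson disease, 0.365 ± 0.196 TPM. Atp7a was above Slc31a2 in all but normal-salt library 1, and Atp7b was far below both in every library.

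Slc31a1 had 251, 224, 274 and 225 CPM in the high-salt libraries and 254, 238, 285 and 233 CPM in the normal-salt libraries. Slc31a2 had 33.5, 37.8, 36.1 and 29.3 CPM in the high-salt libraries and 38.7, 31.7, 39.1 and 34.5 CPM in the normal-salt libraries. The diets overlapped in both, and the log2 fold changes were -0.05 (SE 0.10, limma adjusted p = 0.903) for Slc31a1 and -0.08 (SE 0.11, adjusted p = 0.864) for Slc31a2.

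Atp7b had 1.88, 2.71, 1.5 and 1.40 CPM in the high-salt libraries and 0.71, 1.08, 1.01 and 1.08 CPM in the normal-salt libraries. All 4 high-salt libraries lay above all 4 normal-salt libraries, at levels close to the filter. The log2 fold change was 0.53 (SE 0.20), with an unadjusted p of 0.0226 and an adjusted p of 0.382 in limma. It was 0.91 with voom on the estimated counts, 0.86 with a pseudocount of 0.1 CPM and 0.24 with the TPM table (unadjusted p = 0.140). The exact permutation test gave p = 0.0286, the smallest that 4 against 4 libraries allow. In a bulk sample, more cells that express a gene and more RNA per cell cannot be told apart.

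Atp7a showed 1 library far from the rest. It had 170, 135, 152 and 131 CPM in the high-salt libraries and 52.1, 187, 171 and 166 CPM in the normal-salt libraries. With all libraries the log2 fold change was 0.18 (SE 0.34, limma adjusted p = 0.899). Without normal-salt library 1 it was -0.25 (unadjusted p = 0.0289, adjusted p = 0.307), so that the direction depended on that library. Slc31a1, in contrast, was at 254 CPM in the same library, close to the other normal-salt values.

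Of 11 other copper genes listed, all were tested, and 0 were called or at an unadjusted p under 0.05, with a median log2 fold change of -0.08. Atox1, the chaperone that hands copper to the 2 pumps, had 32.1 ± 1.35 CPM under high salt and 36.2 ± 8.07 CPM under normal salt (SD, n = 4 each, -0.14, adjusted p = 0.782), and its highest value, 47.1 CPM, was in normal-salt library 1. Ccs, the chaperone of superoxide dismutase 1, had a fold change of -0.21, and Sco1 and Sco2, which bring copper to cytochrome c oxidase, had 0.21 and 0.24.

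Of the 9 magnesium genes, 3 (33.3%) were at an unadjusted p under 0.05, where 10.3% of all tested genes were, and 0 of them were with the TPM table. They are Cnnm1 and Cnnm2, of the cyclin M family that is linked to magnesium export from cells, and Slc41a2, a magnesium carrier. All 3 had higher means under high salt, while Trpm7, Cnnm3 and Slc41a3 had lower means. The 9 genes had a median log2 fold change of 0.14.

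By level, Trpm7, a magnesium channel joined to a kinase that most cells express, came first at 19.2 ± 3.60 TPM (SD, n = 8). The sodium-magnesium exchanger Slc41a1 followed at 15.9 ± 3.94 TPM, Cnnm3 at 14.4 ± 3.03 TPM and Cnnm2 at 14.1 ± 2.85 TPM. Cnnm4, Cnnm1 and Slc41a2 had 9.85, 8.51 and 6.59 TPM. Each neighbour in this order overlapped the next over the 8 libraries, though within a library Cnnm2 was always above Cnnm4. Trpm6, the magnesium channel of the distal convoluted tubule, was low at 2.16 ± 0.796 TPM, as was Slc41a3 at 1.89 ± 0.407 TPM. Trpm6 had 8.71 ± 3.19 CPM under high salt and 7.57 ± 1.88 CPM under normal salt (SD, n = 4 each, 0.14, adjusted p = 0.901). It is itself 1 of the 13 distal convoluted and connecting tubule markers, of which 11 were tested and limma called 0. Of the 11, 3 (27.3%) were at an unadjusted p under 0.05, where 10.3% of all tested genes were. They were Slc8a1, Trpv5 and Emx1, with higher means under high salt, while 4 of the 11 had lower means. The diets did not overlap for 2 of the 11 (18.2%), where 6.4% of all tested genes did not. Whether RNA of those tubules has a part in the magnesium gene values was not tested.

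Cnnm2, which in humans is mutated in inherited magnesium loss, had 32.8, 29.5, 39 and 31.4 CPM in the high-salt libraries and 17.5, 26.2, 27.3 and 28.9 CPM in the normal-salt libraries. Every high-salt library lay above every normal-salt library, with high-salt library 3 and normal-salt library 6 the nearest pair. The log2 fold change was 0.41 (SE 0.16, unadjusted p = 0.0246, adjusted p = 0.392 in limma) and the exact permutation p was 0.0286. Without normal-salt library 1 it was 0.26 (unadjusted p = 0.0381, adjusted p = 0.339).

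Cnnm1 had 21.2, 24.8, 20.1 and 22.7 CPM in the high-salt libraries and 13.7, 15.6, 18.8 and 21.5 CPM in the normal-salt libraries. Normal-salt library 6 alone lay among the high-salt values. The log2 fold change was 0.35 (SE 0.14, unadjusted p = 0.0343, adjusted p = 0.438 in limma), and the gene shares exon bases on the opposite strand with Gm47936 and Gm47938. Slc41a2 had 18.2, 13.1, 22.6 and 15.4 CPM in the high-salt libraries and 9.90, 14.5, 11.9 and 12.9 CPM in the normal-salt libraries. High-salt library 3 overlapped the normal-salt libraries and the other high-salt libraries lay above them. Its log2 fold change was 0.45 (SE 0.17, unadjusted p = 0.0256, adjusted p = 0.397).

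**Figure D3:**
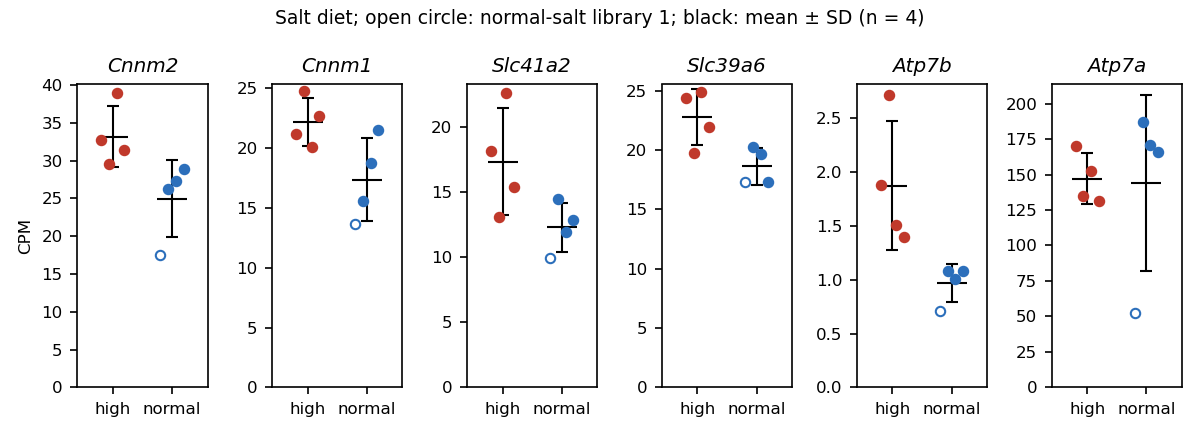
CPM by diet of the 5 genes with an unadjusted p under 0.05 and of Atp7a, with 1 circle per library, high salt on the left, and the mean ± SD (n = 4) in black. Normal-salt library 1, the open circle, is the lowest or tied lowest of its diet in all 6 genes, and the diets do not overlap for Cnnm2 and Atp7b.

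The most abundant magnesium genes overlapped between the diets. Trpm7 had 56.9, 65.0, 55.5 and 71.8 CPM under high salt and 63.3, 72.3, 77.5 and 79.0 CPM under normal salt (log2 fold change -0.23, SE 0.11, unadjusted p = 0.0637). Cnnm3 had 38.5, 35.7, 31.8 and 34.9 CPM under high salt and 32.8, 41.7, 40.5 and 49.5 CPM under normal salt (-0.21, SE 0.13, unadjusted p = 0.130). Normal-salt library 1 was the lowest normal-salt library in both genes. Without it the fold changes were -0.29 for Trpm7 (unadjusted p = 0.0141, adjusted p = 0.238) and -0.31 for Cnnm3 (unadjusted p = 0.0127, adjusted p = 0.227), still short of a call. Slc41a1 had 49.6, 38.6, 54.3 and 59.7 CPM under high salt and 32.5, 48.4, 36.5 and 62.5 CPM under normal salt (0.19, SE 0.20, adjusted p = 0.793). The fold change of Slc41a1 depended on single libraries. It was 0.05 when normal-salt library 1 was left out and 0.36 when normal-salt library 6 was. Leaving out normal-salt library 3 or high-salt library 6 gave 0.11, and leaving out high-salt library 3 gave 0.31.

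Of 28 other magnesium genes listed, 25 were tested, 0 were called by limma and 3 (12%, near the 10.3% of all tested genes) reached an unadjusted p under 0.05, all with higher means under high salt. Nipal1, a member of the NIPA magnesium carrier family, had 87.7, 81.8, 89.4 and 66.6 CPM in the high-salt libraries and 49.1, 54.5, 57.5 and 71.7 CPM in the normal-salt libraries. High-salt library 6 lay among the normal-salt values, and the log2 fold change was 0.48 (SE 0.13, unadjusted p = 0.00421, adjusted p = 0.209). Its relative Nipa2 had 56.2 ± 3.77 CPM under high salt and 48.1 ± 3.26 CPM under normal salt (0.22, adjusted p = 0.431), and Ptp4a2, a phosphatase whose family binds the cyclin M proteins, had 316 ± 21.4 CPM under high salt and 269 ± 27.2 CPM under normal salt (0.23, adjusted p = 0.444). Neither overlapped between the diets, which makes 2 of the 25 (8.0%), near the 6.4% of all tested genes. Pcbd1, which in humans is mutated in a form of magnesium loss, had a fold change of 0.30 (unadjusted p = 0.0518). The mitochondrial magnesium channel Mrs2 had 122 ± 7.54 CPM under high salt and 109 ± 9.18 CPM under normal salt (0.17, adjusted p = 0.573), and Magt1, a subunit of the glycosylation complex also linked to magnesium, had 81.9 ± 9.80 CPM under high salt and 84.4 ± 3.25 CPM under normal salt (-0.05, adjusted p = 0.90). The median over the 25 was -0.04. The list shares Egf, Cldn10, Cldn16 and other genes with the markers of the thick ascending limb, of which 13 of 14 had lower means under high salt, with a median of -0.59 and 0 called. With the level of these markers as a covariate, fold changes were 0.37 for Cnnm2, 0.33 for Cnnm1 and 0.42 for Slc41a2. Without it they were 0.41, 0.35 and 0.45, and with it the unadjusted limma p of these 3 lay between 0.0575 and 0.0754. Trpm7 had -0.19 and Cnnm3 -0.25 with the covariate, against -0.23 and -0.21 without it. Whether RNA of the thick ascending limb has a part in these values was not tested.

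**Figure D4:**
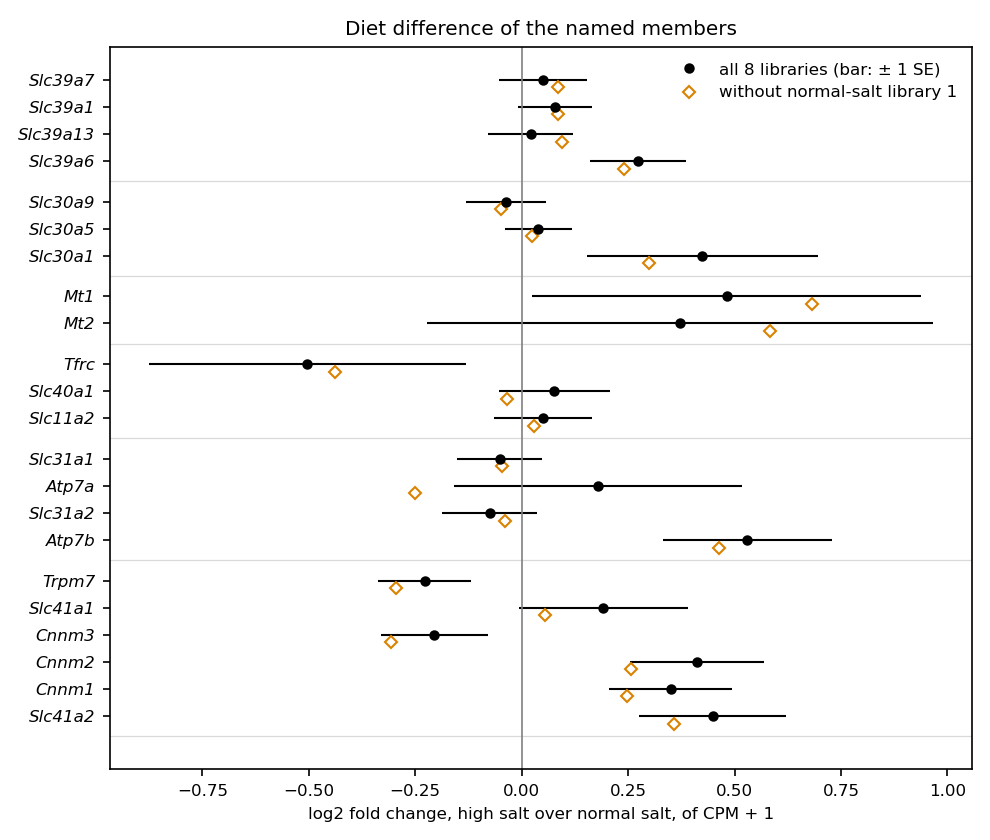
Log2 fold change of CPM + 1, high salt over normal salt, for the 22 genes given library by library, as black dots with bars of 1 SE for all 8 libraries and open diamonds without normal-salt library 1. Atp7a moves across 0, from 0.18 to -0.25, Cnnm2 moves to 0.26, and Mt1 and Mt2 have the widest bars with Tfrc.

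How far normal-salt library 1 departed from the other normal-salt libraries followed transcript length within the set. Of the 18 tested genes with a transcript of at least 4500 bases, 16 were lower in that library than in the mean of the other normal-salt libraries, and of the 16 shorter ones 6 were. Across the 34 genes Spearman's rho between length and the difference was -0.62, as a description of 1 library. The differences ran from 0.85 for Mt2 (511 bases) and 0.80 for Mt1 (1085 bases) to -0.62 for Cnnm2 (4955 bases) and -1.72 for Atp7a (4900 bases). Atp7a went well beyond the genes of like length, such as Tfrc (4890 bases) at 0.26. The genes at an unadjusted p under 0.05 have transcripts of 3882 bases (Slc39a6) to 6505 bases (Atp7b), and all 5 were below 0 in this measure. Without normal-salt library 1, Cnnm2 was the only one of the 5 still under 0.05 (Atp7b was at 0.050, just above it). The other fold changes without it were 0.46 for Atp7b, 0.25 for Cnnm1, 0.36 for Slc41a2 and 0.24 for Slc39a6, against 0.53, 0.35, 0.45 and 0.27 with all libraries. In the same fit Atp7a, Trpm7 and Cnnm3 came under 0.05 with lower means under high salt. With the length trend of each library taken out instead, an alternative chosen after the data were seen, all 5 stayed under 0.05 with fold changes of 0.36 for Cnnm2, 0.29 for Cnnm1, 0.39 for Slc41a2, 0.24 for Slc39a6 and 0.47 for Atp7b, and Cnnm3 and Trpm7 joined them at -0.24 and -0.32. None of these fits called any of the 34 genes.

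**Figure D5:**
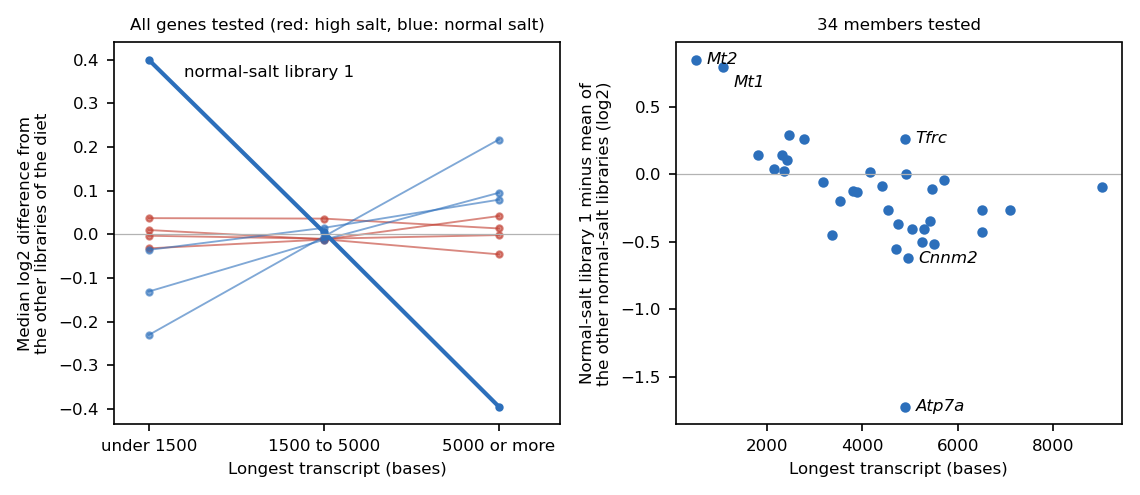
Left: median log2 difference of each library from the mean of the other libraries of its diet, by length of the longest transcript, over all tested genes. Right: difference of normal-salt library 1 from the other normal-salt libraries against transcript length for the 34 genes. The thick line of normal-salt library 1 runs from 0.40 to -0.40, and Atp7a lies below all other points.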

How the data were processed

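RNA of mouse outer medullary collecting duct was sequenced in 8 libraries, 1 per mouse and 4 for each diet. FastQC, Trimmomatic and the build mm10 are named, with no order or role, per the submitters' processing notes. How reads were aligned and counted, and with which strand setting, is not given in the sources used. The authors deposited a TPM table rounded to 3 decimals and a table named as CPM whose values were log2 with a shared floor of -5.29. These log2 values, which the authors deposited, were turned back to linear CPM by raising 2 to their power, subtracting the floor and scaling each library to 1 M, because the planned test assumed linear CPM. The steps between values gave estimated counts, of which 84.7% to 85.9% were whole within 0.005, so a count model was not the main test. Column names gave the diet but not the sample title, so libraries carry their column number. Total counts set a floor of 0.0319 to 0.0463 CPM for 3 counts, which covers counting error only.

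Genes with at least 1 CPM in at least 4 of 8 libraries, 13401 in all, were compared with limma 3.58.1 (R 4.3.3) after log2(CPM + 1) (eBayes with trend, two-sided, Benjamini-Hochberg), which was first tested on simulated data. Fold changes on this scale understate those of low genes. The members and all lists were chosen with earlier results of these data known. Genes given library by library were those called, those at an unadjusted p under 0.05 and the 3 highest by mean TPM in each metal group. In the other lists they were the called genes, otherwise up to 4 with the smallest p, with Fth1, Ftl1, Hamp, Hmox1, Mtf1, Atox1, Mrs2 and Magt1 added, and Hamp2, Fosl2, Mt3, Mt4 and the markers shown were named after their values were seen. Gene models were GENCODE M21 (all 43 members matched by symbol) and promoters RefSeq GRCm38.p6. Alternatives covered the pseudocount, filter, scaling, table, moderation, weights, covariate, test, single libraries, the replicate block and transcript length.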

Additional observations from a re-analysis of the deposited data

Results flagged for a closer look

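Of 68 groups of 4 libraries, 1 per tested gene and diet, 2 held a library far from the other 3, and chance gives about 1 in 20. Atp7a had 52.1 CPM in normal-salt library 1, against 166 to 187 CPM in the other normal-salt libraries. Slc30a9 had 128 CPM in high-salt library 6, against 113 to 116 CPM in the other high-salt libraries. Neither cause was tested.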

How the results depend on the processing

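All alternatives run called 0 of the 34 genes. The number at an unadjusted p under 0.05, 5 as reported, was 0 with the TPM table, 1 with thick ascending limb markers as a covariate (Mt1, at 0.92), 2 with the exact permutation test, 7 with array quality weights and 2 to 6 when 1 library was left out. Of all 13401 genes, 11 were called as reported, 0 with no filter on low values and with the permutation test, 22 with robust moderation, 129 with array quality weights, 43 with the covariate, 20 with the length trend removed (added after the data were seen) and 0 to 50 when 1 library was left out. The median log2 fold change of the 34 genes ran from 0.03 to 0.09 when 1 library was left out. A replicate block was fitted on the 3 column numbers that both diets share. For these numbers the pairing check gave correlations of 0.21, 0.29 and 0.00201 between same-numbered libraries. Number 3 matched itself best in both directions and number 6 in neither, so the check cannot settle whether the numbers pair mice. That block called 37 genes, and the same libraries without the block 23 (added after the data were seen), with a median of 0.0106 for the 34 genes in both. Fold changes with the covariate were 0.33 for Cnnm1, 0.37 for Cnnm2, 0.42 for Slc41a2, 0.25 for Slc39a6 and 0.41 for Atp7b. Mt2 had 0.94 with it, against 0.37 without, and Tfrc had -0.21, against -0.50. The direction turned in 8 of the 22 named genes, in 19 of 483 fits. Atp7a was -0.13 with array quality weights, -0.27 with and without the block, -0.00823 with the covariate and -0.25 to 0.36 when 1 library was left out. Slc40a1 was -0.0248 with and without the block, -0.00832 with the covariate and -0.0352 to 0.16 when 1 library was left out. Slc11a2 was -0.0367 with weights, and with the TPM table Slc31a1 was 0.00749 and Slc39a13 -0.0268. When 1 library was left out, Slc11a2 ran from -0.00859 to 0.16, Slc31a1 from -0.11 to 0.00712, Slc39a13 from -0.0328 to 0.10, Slc39a7 from -0.00630 to 0.11, Slc30a9 from -0.0770 to 0.0354 and Mt2 from -0.00555 to 0.99. The causes were not tested. Depth limits the genes under the filter, where 1 count is worth 0.0106 to 0.0154 CPM.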
